A study of Mus musculus with 8 samples.

Results

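The 9 genes described here encode the intermediate filaments, membrane proteins, gap junction subunits and an RNA granule protein of the lens, several of them typical of fiber cells. They are Bfsp1, Bfsp2, Vim, Lgsn, Mip, Lim2, Gja1, Gja3 and Tdrd7, and they were chosen by name from 20191 protein-coding genes of at least 1 kb on chromosomes 1 to 19 and X. Each gene was described by the chromatin loops, topologically associating domains (TADs) and CTCF peaks listed around it. A loop belonged to a gene when one of its anchors lay within 50 kb of the gene body or when it spanned the gene and was at most 1 Mb long. A TAD belonged to a gene when it touched the gene body, and a CTCF peak when it lay within 50 kb.

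Hi-C was performed with 2 replicates each of wild type v6.5 mouse embryonic stem (ES) cells, of the epithelium and of the fiber cells of the lens, and CTCF ChIP-seq with 1 sample of each lens cell type per the labels, here called epithelium and fibers. For ChIP-seq, the study's methods name biological replicates, and whether each peak list pools them is not given in the sources used here. The lens tissues were microdissected from CD-1 mice at postnatal day 0.5, with 30 lenses pooled per Hi-C replicate and 200 lenses for ChIP-seq. The ES cells were grown without feeders in the presence of LIF, and all Hi-C material was fixed in 2.0% formaldehyde. ES cells are a single cultured line of another genetic background than the CD-1 lenses, so that cell type, strain and culture cannot be told apart in comparisons with ES cells. The authors merged the replicates before calling loops with HiCCUPS and TADs with Arrowhead. Each cell type is therefore represented by 1 list without a spread between replicates, and the cell types were compared without a test. In a bulk map, a loop formed in fewer cells cannot be told apart from a weaker loop in every cell. No expression was measured in these lists, and the cell type labels could not be checked against marker genes. ES cell CTCF peaks were not analysed here.

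A chromatin loop in a Hi-C map is a pair of sites that touch more often than their surroundings. Many loops are held by cohesin that stops at the zinc finger protein CTCF, which also marks many TAD borders. The lens fiber cell builds its shape with beaded filaments made of filensin (Bfsp1) and phakinin (Bfsp2), joins its neighbours through connexins, and packs its membrane with the water channel encoded by Mip. Vimentin (Vim) forms ordinary intermediate filaments in both lens cell types, lengsin (Lgsn) associates with the fiber cytoskeleton, and Tdrd7 is a Tudor domain protein of RNA granules whose loss causes cataract.

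The promoters on which the loop and peak lists bear most directly are given from 250 bases before to 50 bases after the start site in RefSeq, assembly GRCm38.p6, written in the direction of transcription. Promoters were matched for all 9 genes, with 12 start sites in total. The Vim promoter (chr2:13574061-13574360, plus strand) lay in loop anchors of all 3 cell types, and the Gja1 promoter (chr10:56377050-56377349, plus strand) in anchors of ES cells and fibers. These Gja1 anchors were 10 kb wide, while 5 kb anchors of epithelium ended 2.30 kb before the gene. The Bfsp1 promoter (chr2:143863124-143863423, minus strand) lay in anchors of both lens lists and of no ES cell loop. One of 3 Tdrd7 promoters (chr4:45972047-45972346, plus strand) was the only promoter of the 12 that a CTCF peak overlapped. Both Gja3 promoters lay in an anchor in epithelium, and that of the outer start site (chr14:57057981-57058280, minus strand) is shown. Capitals mark matches to AGGNGGC, a core of the CTCF motif, searched on both strands.
Vim: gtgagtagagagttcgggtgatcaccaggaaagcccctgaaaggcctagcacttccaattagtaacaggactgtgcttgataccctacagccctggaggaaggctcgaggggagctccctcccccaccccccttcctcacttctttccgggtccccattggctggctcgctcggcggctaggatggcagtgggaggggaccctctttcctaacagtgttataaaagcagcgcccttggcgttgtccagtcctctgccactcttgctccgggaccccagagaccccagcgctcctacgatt
Gja1: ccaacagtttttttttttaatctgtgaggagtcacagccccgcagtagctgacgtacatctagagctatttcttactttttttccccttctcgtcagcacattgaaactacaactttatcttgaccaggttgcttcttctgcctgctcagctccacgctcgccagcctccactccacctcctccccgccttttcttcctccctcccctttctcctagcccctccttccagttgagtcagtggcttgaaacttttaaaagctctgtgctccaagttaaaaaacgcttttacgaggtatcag
Bfsp1: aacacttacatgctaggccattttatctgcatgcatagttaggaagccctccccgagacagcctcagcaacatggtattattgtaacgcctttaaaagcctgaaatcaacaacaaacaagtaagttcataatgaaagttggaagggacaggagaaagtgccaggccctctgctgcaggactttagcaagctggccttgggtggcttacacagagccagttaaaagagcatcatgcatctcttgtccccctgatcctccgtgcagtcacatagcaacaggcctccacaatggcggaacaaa
Tdrd7: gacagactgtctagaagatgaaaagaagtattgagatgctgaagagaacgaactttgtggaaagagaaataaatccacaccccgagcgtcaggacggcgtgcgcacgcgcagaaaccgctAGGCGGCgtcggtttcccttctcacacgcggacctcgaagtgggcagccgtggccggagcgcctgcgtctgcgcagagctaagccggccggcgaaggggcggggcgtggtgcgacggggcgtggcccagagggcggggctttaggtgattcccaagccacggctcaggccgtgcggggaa
Gja3: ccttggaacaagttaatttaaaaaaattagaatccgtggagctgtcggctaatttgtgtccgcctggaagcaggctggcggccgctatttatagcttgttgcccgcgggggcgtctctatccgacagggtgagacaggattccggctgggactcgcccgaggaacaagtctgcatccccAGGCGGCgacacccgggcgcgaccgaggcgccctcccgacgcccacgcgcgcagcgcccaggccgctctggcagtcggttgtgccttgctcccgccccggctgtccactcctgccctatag

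AGGNGGC was found in 4 of the 12 promoters, and in 29.4% of all 32851 promoters in the same table. A match to these 7 letters describes the sequence and is no evidence of binding. In the Tdrd7 promoter shown, the match began at base 121, with the start site at base 251. The CTCF peak of fibers covered 252 of its 300 bases. The Vim, Gja1 and Bfsp1 promoters held no match, although each lay in an anchor.

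The lists held 18 loops with an anchor within 50 kb of these genes in ES cells, 19 in epithelium and 23 in fibers. They came with 7, 3 and 3 loops spanning a gene, some of which were also anchored near it, so that 20, 19 and 25 different loops were counted. At least 1 anchor was found near 7 of 9 genes in ES cells, against 70.1% of all genes. It was found near 8 of 9 in epithelium, against 66.6%, and near 8 of 9 in fibers, against 64.3%. In all 3 lists, 7 genes had an anchor, against 51.5% of all genes. Gja1 had the most loops, with 5 in ES cells, 5 in epithelium and 6 in fibers, and Lgsn followed with 3, 3 and 4. Lim2 was the 1 gene without an anchor in any list, which held for 18.1% of all genes.

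**Figure D1:**
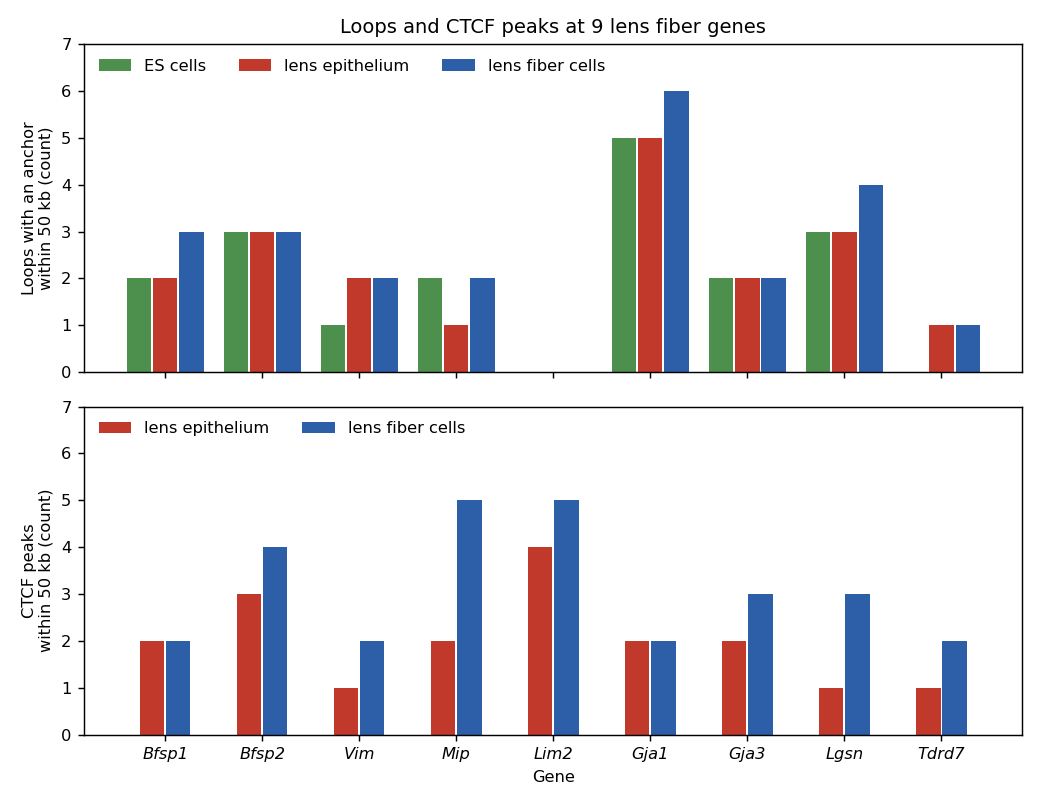
Number of loops with an anchor within 50 kb (top; ES cells, epithelium and fibers) and of CTCF peaks within 50 kb (bottom; both lens lists) for each of the 9 genes, from 1 list per cell type. Gja1 has 5, 5 and 6 loops, Lim2 has none but 4 and 5 CTCF peaks, and no gene has fewer CTCF peaks in fibers than in epithelium. Of all 20191 genes, 1951 have fewer.

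More loops at these genes were shared between the lens cell types than with ES cells, although the intervals of these shares overlapped. A loop counted as shared when a loop in the other list had both its anchor midpoints at most 10 kb away. Of the 19 loops in epithelium, 16 were listed in fibers, or 84.2% (95% Wilson interval 62.4% to 94.5%), compared with 55.5% over the whole epithelium list. Of the 25 loops in fibers, 16 were listed in epithelium, or 64.0% (44.5% to 79.8%), compared with 57.8% over the whole list. The intervals here and below cover counting error only. They treat each loop as independent, although several loops at the same gene share an anchor. With ES cells, 11 of the 19 epithelium loops were shared, or 57.9% (36.3% to 76.9%), compared with 37.9% over the list. Of the 25 fiber loops, 9 were shared with ES cells, or 36.0% (20.2% to 55.5%), compared with 38.1%. Loops found in 1 list alone numbered 9 in ES cells, 3 in epithelium and 9 in fibers. The share of epithelium loops found in fibers dropped to 52.6% when both anchors had to overlap instead. With a tolerance of 25 kb, 12 of 25 fiber loops (48.0%) were shared with ES cells. Epithelium loops were then shared at 89.5% with fibers and at 57.9% with ES cells. The part of anchor width in these shares, and in the counts of loops in 1 list alone, was not tested.

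The start site of a gene lay inside an anchor for 2 genes in ES cells (Vim and Gja1), against 13.1% of the 16050 genes with a start site in the table. In epithelium it did so for 3 genes (Bfsp1, Vim and Gja3), against 15.0%. In fibers the 3 genes were Bfsp1, Vim and Gja1, against 13.8%. Loops spanning a gene were listed for 4 genes in ES cells (Bfsp2, Vim, Gja1 and Gja3), against 40.1% of all genes. They were listed for Gja1 alone in epithelium, against 31.6%, and for Vim and Gja3 in fibers, against 30.9%. At Gja1, the epithelium loops of 630 and 810 kb had 5 kb anchors that ended 2.30 kb before the gene, so they counted as spanning. The fiber loops of these sizes had 10 kb anchors that held the start site. The part of anchor width in these counts was not tested.

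Filensin and phakinin assemble with each other into the beaded filament, and each gene had a short loop in both lens lists that was not listed in ES cells. Bfsp1 covers 88.7 kb (chr2:143826528-143915219, minus strand). Its start site in the promoter table lies 52.0 kb inside the outer end of this body. A 120 kb loop ran from an anchor over that start site (chr2:143860001-143870000) to Rrbp1, which encodes a ribosome-binding protein of the endoplasmic reticulum. It had 39 observed contacts in epithelium (exact 95% Poisson interval 27.7 to 53.3), or 2.96 times the number expected from its surroundings. In fibers it had 48 contacts (35.4 to 63.6), or 2.47 times expected. A longer loop of 600 kb from the same start site to Dzank1 was listed only in fibers, with 85 contacts, 2.18 times expected. The largest FDR of the 120 kb loop was 0.0142 in epithelium and 0.00588 in fibers.

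At both anchors of the 120 kb Bfsp1 loop, fibers had a CTCF peak, and epithelium had none at either. The fiber peak on the Bfsp1 side had its summit 4.36 kb upstream of the start site, with a fold enrichment of 8.15 over background. It was stronger than 73.9% of the fiber peaks. ES cells instead had a 380 kb loop toward Snx5 from an anchor within the gene (chr2:143830001-143840000), with 59 contacts and a ratio of 3.19. That anchor held an epithelium CTCF peak with a fold enrichment of 5.94, although the loop itself was in neither lens list. The remaining Bfsp1 loop, of 660 kb in ES cells and fibers and 670 kb in epithelium, ran from Pcsk2, which encodes a prohormone convertase, to a site near Otor. It had 47, 37 and 46 contacts in ES cells, epithelium and fibers. No CTCF peak of either lens list lay in its anchors.

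Bfsp2 covers 55.5 kb (chr9:103424924-103480405, minus strand), and its start site in the promoter table lies 31.2 kb inside the outer end. A 60 kb loop joined the 3′ end of the gene (chr9:103420001-103430000) to Cdv3. It had 55 contacts in epithelium (41.4 to 71.6) and 84 in fibers (67.0 to 104), with ratios of 2.40 and 2.60. Its largest FDR was 0.0109 in epithelium and 4.84e-07 in fibers. No loop of ES cells matched it, and neither anchor held a CTCF peak in either lens list. On the other side, a site in Tmem108 (chr9:103490001-103500000) was the anchor of a 260 kb loop within Tmem108 and of a 500 kb loop in the same direction. Both were listed in all 3 cell types, the former at 265 kb in ES cells. The corresponding epithelium loop of 520 kb had its anchor one bin closer (chr9:103480001-103490000), where it reached the outer end of Bfsp2. Another loop, of 75 kb within Tmem108, was listed in ES cells only.

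The Tmem108 anchor of the Bfsp2 loops held 1 CTCF peak in epithelium and 2 in fibers. The peak in both lists had a fold enrichment of 7.99 in epithelium and 6.97 in fibers, and the second fiber peak one of 7.20. Within the Bfsp2 body, a peak 20.5 kb upstream of the start site was in both lens lists, at 4.61 and 5.18. One further peak in each list, at 5.42 in epithelium and 5.26 in fibers, had no counterpart in the other. A TAD of 525 to 530 kb, starting between positions 103465001 and 103480001, touched the outer end of Bfsp2 in all 3 lists and ran away from the gene. A second TAD of 90 kb (chr9:103355001-103445000) reached into the gene from its 3′ side in fibers only.

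Vimentin is made in many cell types, and Vim had the same loop in all 3 lists. Vim covers 8.52 kb (chr2:13574311-13582826, plus strand). A 280 kb loop ran from an anchor over the Vim start site (chr2:13570001-13580000) to Cubn, the gene for the endocytic receptor cubilin, at chr2:13290001-13300000. It had 85 contacts in ES cells (67.9 to 105), 62 in epithelium (47.5 to 79.5) and 66 in fibers (51.0 to 84.0). The ratios to expected contacts were 3.04 in ES cells, 3.90 in epithelium and 3.21 in fibers, with intervals that all overlapped. Both anchors held a CTCF peak in both lens lists. The peak within Vim had its summit 1.36 kb downstream of the start site in epithelium and 1.40 kb in fibers, with fold enrichments of 7.52 and 7.63.

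This peak covered 3.48% of the Vim body in epithelium and 3.76% in fibers. More of the body was covered in 243 of all genes in epithelium and in 577 in fibers. A TAD with the whole gene inside was listed in both lens cell types, at chr2:13285001-13590000 in epithelium and at chr2:13280001-13590000 in fibers. Its borders lay close to both anchors of the 280 kb loop. The nearest TAD of ES cells ended 49.3 kb from Vim. Loops from the Cubn side across Vim measured 520 kb in ES cells, and 575 and 750 kb in fibers. Epithelium had no such loop, but one of 650 kb from beyond Vim to Mrc1. Fibers also had a 175 kb loop from Cubn to an anchor over the Vim start site, with 212 contacts and the lowest ratio of the fiber loops at these genes, 1.90.

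Lengsin is a lens protein related to glutamine synthetase. Lgsn covers 28.4 kb (chr1:31176281-31204725, plus strand), and its loops started from a site 21.4 kb upstream of the start site and from the 3′ end. From the upstream site (chr1:31150001-31160000), a loop of 380 kb in ES cells and 370 kb in both lens lists ran toward Phf3. It had 37 contacts in ES cells, 36 in epithelium and 55 in fibers, with ratios of 4.03, 3.56 and 4.61. A second loop toward Ptp4a1, a gene for a protein tyrosine phosphatase, measured 230 kb in ES cells, 200 kb in epithelium and 225 kb in fibers. These 3 loops did not meet the 10 kb rule for being shared. From the 3′ end, a 125 kb loop was listed in all 3 cell types, and a 1350 kb loop to Khdrbs2, a gene for an RNA-binding protein, in fibers only.

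The upstream anchor of Lgsn held a CTCF peak with a fold enrichment of 10.2 in fibers, above 89.6% of fiber peaks. Epithelium had no peak there, although its list held both loops from this site. A weaker fiber peak at the 3′ end (5.82) lay in the anchors of the 125 and 1350 kb loops, and it too had no counterpart in epithelium. The 1 Lgsn peak in both lens lists lay 46.5 kb upstream of the start site in epithelium and was in no anchor, at 5.07 in epithelium and 5.48 in fibers. No TAD touched Lgsn in any list.

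**Figure D2:**
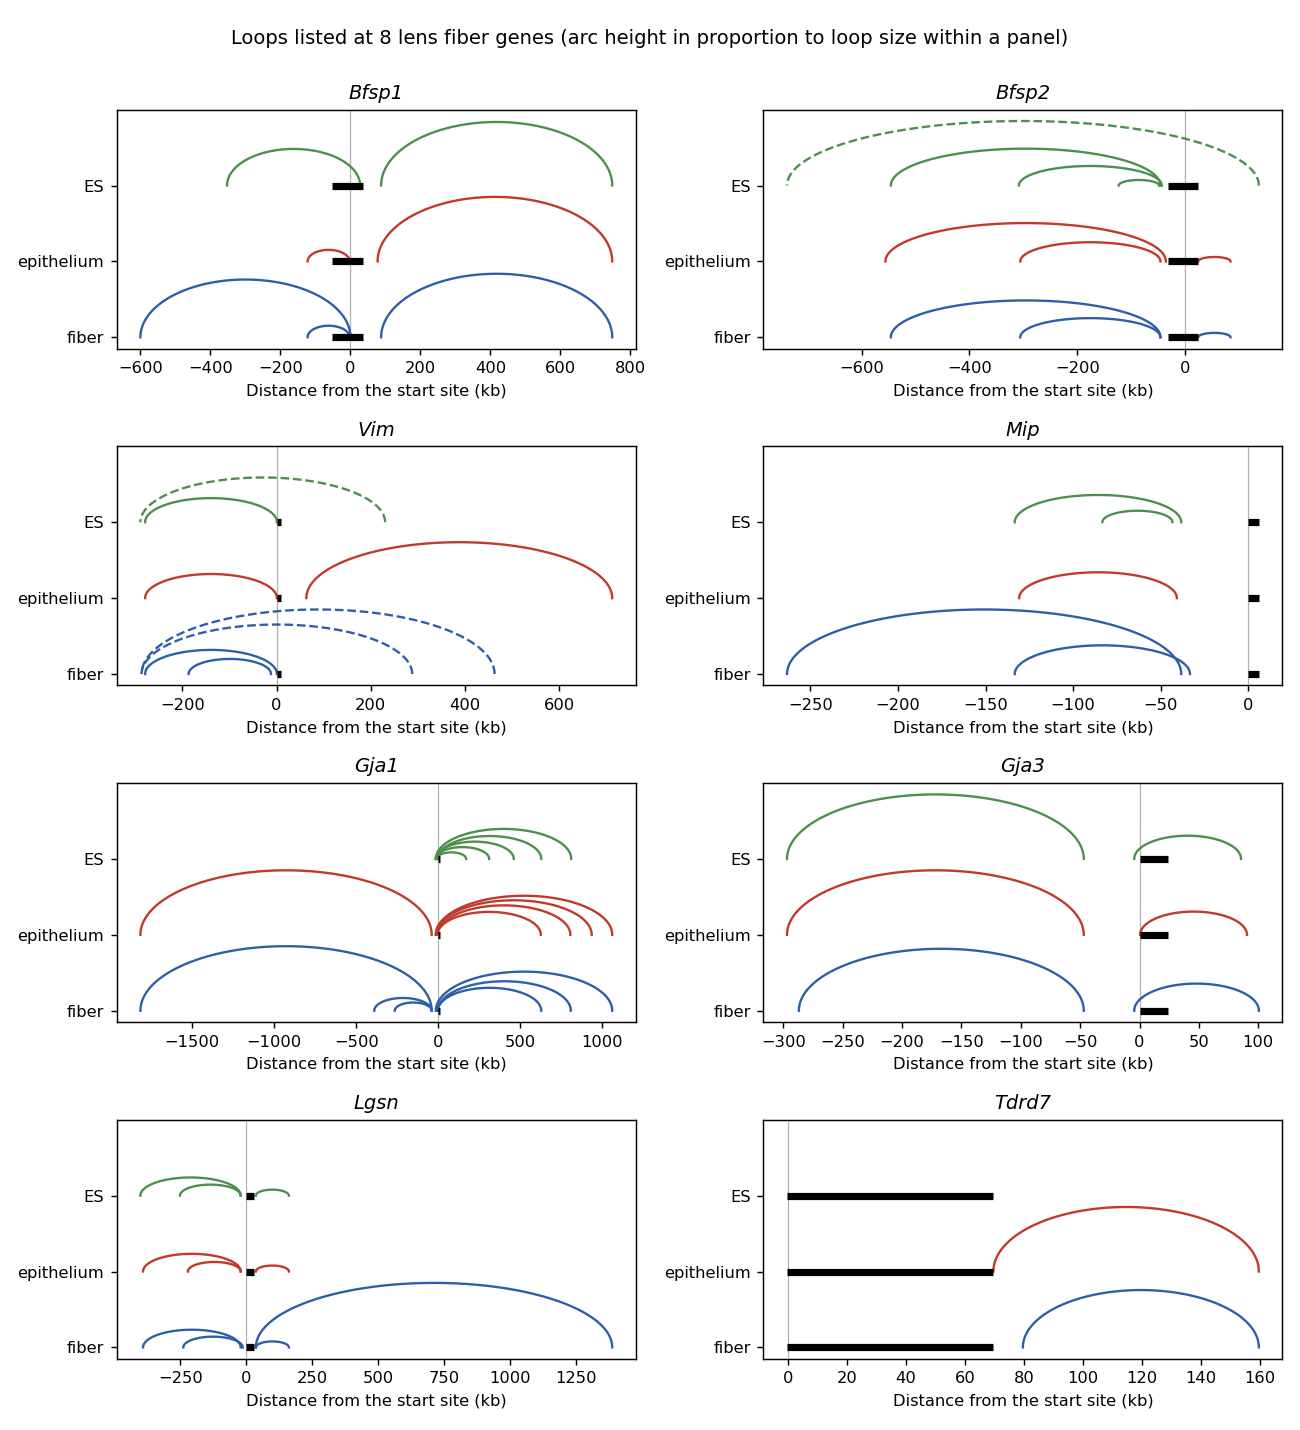
Loops at the 8 genes that have any, drawn as arcs between anchor midpoints by distance from the start site (kb, positive in the direction of transcription), in a row each for ES cells (green), epithelium (red) and fibers (blue). Solid arcs have an anchor within 50 kb, dashed arcs only span the gene, and black bars are gene bodies. The 280 kb arc at Vim recurs in all 3 rows, while the 120 kb arc at Bfsp1, the 60 kb arc at Bfsp2 and the arcs at Tdrd7 are in the lens rows only.

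The membrane protein genes Mip and Lim2 were the 2 genes whose body no anchor of any list overlapped. Mip, which encodes the main intrinsic protein and water channel of fiber membranes, covers 6.00 kb (chr10:128225810-128231812, plus strand). The closest anchor was 35.8 kb away in ES cells and epithelium and 25.8 kb away in fibers. A loop of 95 kb in ES cells, 90 kb in epithelium and 100 kb in fibers ran from the Rbms2 and Gls2 region upstream of Mip to Atp5b and Baz2a. It had 45, 51 and 28 contacts and ratios of 4.23, 3.14 and 3.66. Its anchors were 10 kb wide in epithelium and 5 kb wide in ES cells and fibers, so that the contact counts are not on the same scale. Fibers alone had a 225 kb loop from the same region toward Hsd17b6, with 103 contacts and a ratio of 2.55. ES cells alone had a 40 kb loop within Rbms2.

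CTCF peaks around Mip numbered 2 in epithelium and 5 in fibers. Peaks 39.7 and 12.8 kb upstream of the start site in epithelium had counterparts in fibers. The first was of similar fold enrichment, 6.89 in epithelium and 6.86 in fibers, and the second was 6.42 and 8.73. Of the 3 peaks in fibers alone, 1 lay 37.1 kb upstream with a fold enrichment of 7.27. The other two began 0.907 and 1.84 kb past the 3′ end of Mip and were weak, at 3.66 and 2.74, above 1.23% and 0.243% of fiber peaks. No TAD touched Mip, the nearest being 20.8 kb away in ES cells, 40.8 kb in epithelium and 30.8 kb in fibers.

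Lim2, which encodes an integral membrane protein of fiber cells, covers 5.90 kb (chr7:43430099-43435996, plus strand). No loop and no TAD of any list belonged to it. The closest anchor was 220 kb away in ES cells and 239 kb in fibers. In epithelium it was 50.1 kb away, just outside the limit of 50 kb. Despite this, Lim2 had as many CTCF peaks as any of the 9 genes, with 4 in epithelium and 5 in fibers, and none lay in a loop anchor of any list. The 3 peaks in both lens lists had fold enrichments of 6.65, 5.07 and 5.32 in epithelium. Their fiber counterparts had 10.3, 7.71 and 6.41. The strongest of them lay 6.91 kb upstream of the start site in epithelium and exceeded 90.4% of fiber peaks.

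The connexin genes Gja1 and Gja3 are used differently in the lens, Gja1 mainly in the epithelium and Gja3 in the fibers. Gja1 covers 13.1 kb (chr10:56377300-56390419, plus strand) in a region with few genes. The 630 kb loop from the Gja1 start region toward Hsf2, a heat shock transcription factor gene, was listed in all 3 cell types. Its far anchor did not reach Hsf2, the nearest gene, which lay 474 kb away in ES cells and fibers and 479 kb in epithelium. The ratio of this loop was 4.69 in ES cells (3.21 to 6.62, from 32 contacts), 8.82 in epithelium (5.14 to 14.1, from 17 contacts) and 3.86 in fibers (2.76 to 5.26, from 40 contacts). The epithelium value is the highest of all loops at these genes and rests on the fewest contacts. Anchors were 5 kb wide for this loop in epithelium and 10 kb wide in the other lists.

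Further loops in the same direction measured 810 kb in both lens lists and 825 kb in ES cells. ES cells had shorter ones of 180, 325 and 475 kb that were in neither lens list. A 1075 kb loop was in both lens lists and not in ES cells, with 79 contacts in epithelium (62.5 to 98.5) and 105 in fibers (85.9 to 127). A loop of 950 kb was in epithelium only. In the opposite direction, a 1775 kb loop toward Man1a, a mannosidase gene, was likewise in both lens lists only, with 42 contacts in epithelium and 49 in fibers. Its far anchor did not reach Man1a, the nearest gene, which lay 473 kb away. Fibers added loops of 225 and 350 kb toward Tbc1d32 from the Gja1 side anchor of the 1775 kb loop (chr10:56325001-56350000).

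The anchor toward Man1a held the strongest Gja1 peak, 38.0 kb upstream of the start site, with fold enrichments of 10.9 in epithelium and 12.5 in fibers. These exceeded 98.2% of epithelium peaks and 97.2% of fiber peaks. A second peak, 8.04 kb upstream in epithelium and 7.97 kb upstream in fibers, lay in the anchor of the 1075 kb loop, at 5.75 and 6.77. Gja1 was the 1 gene with every CTCF peak in both lens lists. A TAD of 655 kb (chr10:56360001-57015000) holding Gja1 was listed in fibers only, with borders near both anchors of the 630 kb loop. In ES cells and epithelium, the nearest TAD was 1070 kb from the gene.

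Gja3 covers 23.6 kb (chr14:57034460-57058030, minus strand). A loop from its start region ran past the 3′ end of the gene toward Zmym2, with sizes of 90 kb in ES cells, 90 kb in epithelium and 105 kb in fibers. It had 47 contacts in ES cells (34.5 to 62.5), 26 in epithelium (17.0 to 38.1) and 26 in fibers (17.0 to 38.1). The ratios were 2.93, 4.89 and 4.17. The loops of ES cells and fibers each matched that of epithelium but not each other under the 10 kb rule. In ES cells and fibers the anchor (chr14:57060001-57065000) lay 1.97 kb outside the gene. In epithelium it was one bin closer (chr14:57055001-57060000) and held the start site.

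A CTCF peak 2.20 kb upstream of the Gja3 start site in epithelium lay in the outer anchor but not in the epithelium anchor. In epithelium the peak began at position 57060040, just past the end of that anchor at 57060000. The fold enrichment of the peak was 9.25 in epithelium and 12.6 in fibers, the highest fiber value at these genes. A second peak, 12.1 kb upstream, had 13.6 in epithelium, above 99.6% of its list, and 11.9 in fibers, and lay in no anchor. The other Gja3 loop joined Gjb2, another connexin gene upstream of Gja3, to Cryl1. It measured 250, 250 and 240 kb, with 80, 45 and 58 contacts in ES cells, epithelium and fibers. No TAD touched Gja3 in any list.

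Tdrd7 covers 69.7 kb (chr4:45965027-46034766, plus strand) next to Tmod1, which encodes a protein that caps actin filaments. A loop from the 3′ side of Tdrd7 to Tstd2 measured 90 kb in epithelium and 80 kb in fibers. It had 44 contacts in epithelium (32.0 to 59.1) and 49 in fibers (36.3 to 64.8), with ratios of 2.76 and 2.34. ES cells had no loop with an anchor within 50 kb of Tdrd7, the closest anchor being 115 kb away, but a TAD of 215 kb (chr4:45910001-46125000) that held the whole gene. No TAD of either lens list touched Tdrd7.

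The Tdrd7 locus was also the only one where a CTCF peak lay over a promoter. The fiber peak (chr4:45972000-45972298) had its summit 127 bp before the second of 3 start sites, with a fold enrichment of 7.22, and no epithelium peak overlapped it. A second fiber peak lay 23.4 kb upstream of the first start site, at 8.32. The 1 epithelium peak, 44.1 kb upstream, was weak at 4.61 and was not listed in fibers. No peak was thus shared between the lens lists at Tdrd7, which also held for Bfsp1.

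TADs touched 3 of the 9 genes in ES cells, against 42.2% of all genes. They touched 3 in epithelium, against 22.3%, and 4 in fibers, against 30.9%. Bfsp1 and Bfsp2 were touched in every list, by way of RefSeq bodies that extend upstream of their start sites. At Bfsp2, the TAD began 15.8 kb upstream of the start site in ES cells and 30.8 kb upstream in epithelium. No TAD of any list held the Bfsp2 start site. The Bfsp1 start site was held by a TAD of 85 kb in ES cells and by 2 nested TADs of 455 and 640 kb in epithelium. In fibers, the TAD of 110 kb at Bfsp1 began 11.8 kb away from the start site and left it outside. Mip, Lim2, Gja3 and Lgsn were touched by none.

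CTCF peaks within 50 kb were found at all 9 genes in both lens lists, against 70.3% of all genes in epithelium and 83.7% in fibers. They numbered 18 in epithelium and 28 in fibers. A fiber peak that overlapped no epithelium peak was found at 8 of 9 genes, against 66.0%, and an epithelium peak without a fiber counterpart at 4 of 9, against 26.8%. More fiber than epithelium peaks were listed at 7 genes, against 56.1%, and fewer at none, against 1951 of all 20191 genes. The whole epithelium list had 16433 peaks and the whole fiber list 23868. Of the epithelium peaks at these genes, 13 of 18 were also in fibers, or 72.2% (49.1% to 87.5%), compared with 72.8% over the list. Of the fiber peaks, 13 of 28 were in epithelium, or 46.4% (29.5% to 64.2%), compared with 50.1%. Both shares at these genes were close to those of the lists.

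Peaks inside a gene body were listed at 3 genes in epithelium (Bfsp1, Bfsp2 and Vim), against 23.9% of all genes, and at 4 in fibers, with Tdrd7 in addition, against 35.1%. They covered 0.235% of Bfsp1 in epithelium and 0.400% in fibers. For Bfsp2, coverage was 0.775% and 0.815%. The fiber peak in the Bfsp1 body lay 4.36 kb upstream of the start site used here. The Bfsp2 peak in both lists lay 20.5 kb upstream of its start site. The bodies of Mip, Lim2, Lgsn, Gja1 and Gja3 held no listed peak. These values cover listed peaks only, and CTCF signal outside them was not measured here. The study describes increased CTCF at Bfsp2 in fibers. It also names Mip and Vim among genes with high overlap of CTCF and RNA polymerase II signals.

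**Figure D3:**
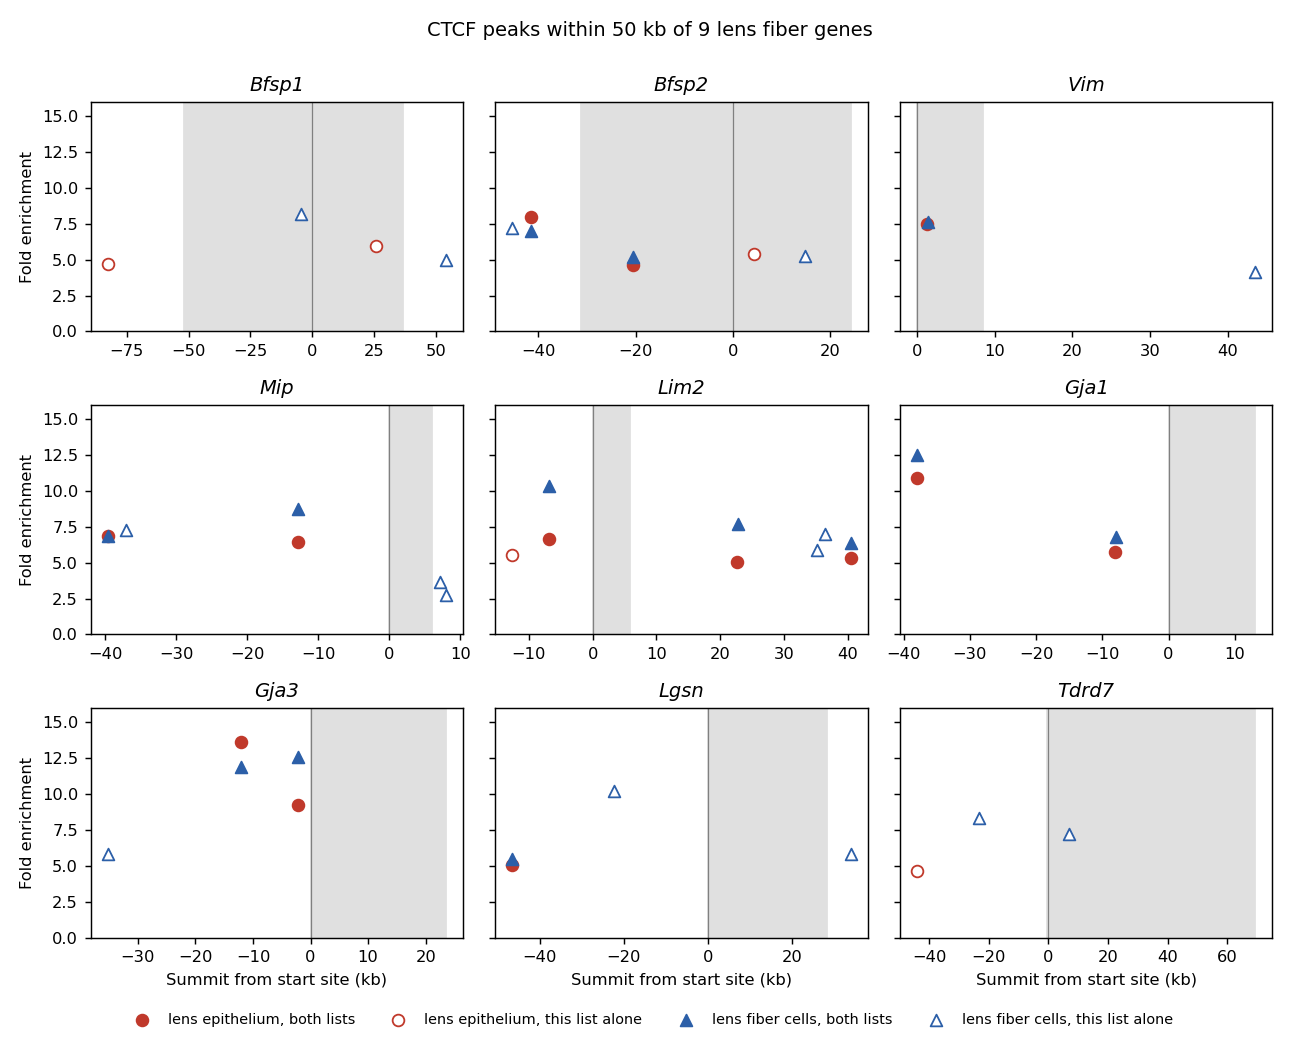
CTCF peaks within 50 kb of each gene, by distance of the summit from the start site (kb, positive in the direction of transcription) and fold enrichment as MACS2 gave it, for epithelium (circles) and fibers (triangles). Filled symbols are peaks in both lists, open symbols peaks in 1 list, and grey bands are gene bodies. Gja3 has the highest values, 13.6 in epithelium and 12.6 in fibers, and only Bfsp1, Bfsp2, Vim and Tdrd7 have peaks within the body.

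The share of loops with CTCF at both anchors was higher in the fiber lists than in the epithelium lists, by an amount that varied between settings. CTCF peaks lay at both anchors of 13 of 25 fiber loops, or 52.0% (33.5% to 70.0%), compared with 39.1% of all fiber loops. They lay at both anchors of 2 of 19 epithelium loops, or 10.5% (2.94% to 31.4%), compared with 15.7% of all epithelium loops. Neither anchor held a peak for 4 of 25 fiber loops, compared with 16.6% of all fiber loops. The same held for 11 of 19 epithelium loops, compared with 39.5% of all epithelium loops. Several of the fiber loops with CTCF at both anchors share an anchor and its peaks, as at Gja1 and Vim. The intervals do not account for this. The fiber peak list was longer, and 12 of 25 fiber loops but 5 of 19 epithelium loops had anchors of 25 kb. The part of peak number and anchor width in the difference between the shares was not tested. The intervals of the 2 shares did not overlap, but they did under each of the 3 settings that follow. With the strongest fiber peaks in the same number as in epithelium, the fiber share was 40.0% (23.4% to 59.3%). With anchors widened by 5 kb, the shares were 26.3% in epithelium (11.8% to 48.8%) and 68.0% in fibers (48.4% to 82.8%). Without the loops with anchors of 25 kb, a setting chosen after seeing the data, 1 of 14 epithelium loops (7.14%, 1.27% to 31.5%) and 4 of 13 fiber loops (30.8%, 12.7% to 57.6%) had CTCF at both anchors. Set against the peaks of the other cell type, 7 of 19 epithelium loops had fiber peaks at both anchors, and 7 of 25 fiber loops had epithelium peaks at both.

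Across the 3 lists, 9 loops at 7 genes recurred, counted from the fiber list. Their contact ratios ranged from 2.25 for the 125 kb loop at Lgsn to 4.84 for the 500 kb loop at Bfsp2 in fibers. For 8 of the 9 loops, the exact Poisson intervals of the 3 ratios all overlapped. The exception was the 125 kb loop at Lgsn, with 6.03 in ES cells (4.12 to 8.51), 2.44 in epithelium (2.04 to 2.89) and 2.25 in fibers (1.92 to 2.61). It was called with anchors of 5 kb in ES cells and 25 kb in both lens lists, and the part of this width in the ratio was not tested. The 260 kb loop at Bfsp2, the 100 kb loop at Mip and the 630 kb loop at Gja1 mixed anchors of 5 and 10 kb between lists. The median ratio over all loops at these genes was 3.32 in ES cells, 3.30 in epithelium and 2.71 in fibers, compared with 3.06, 3.05 and 2.83 over the lists. Anchors of 25 kb were used for 4 of 20 of these loops in ES cells, 5 of 19 in epithelium and 12 of 25 in fibers. The part of anchor width in the medians was not tested. The median loop size at these genes was 302.5 kb in ES cells and 280 kb in both lens lists, compared with 220, 250 and 270 kb.

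**Figure D4:**
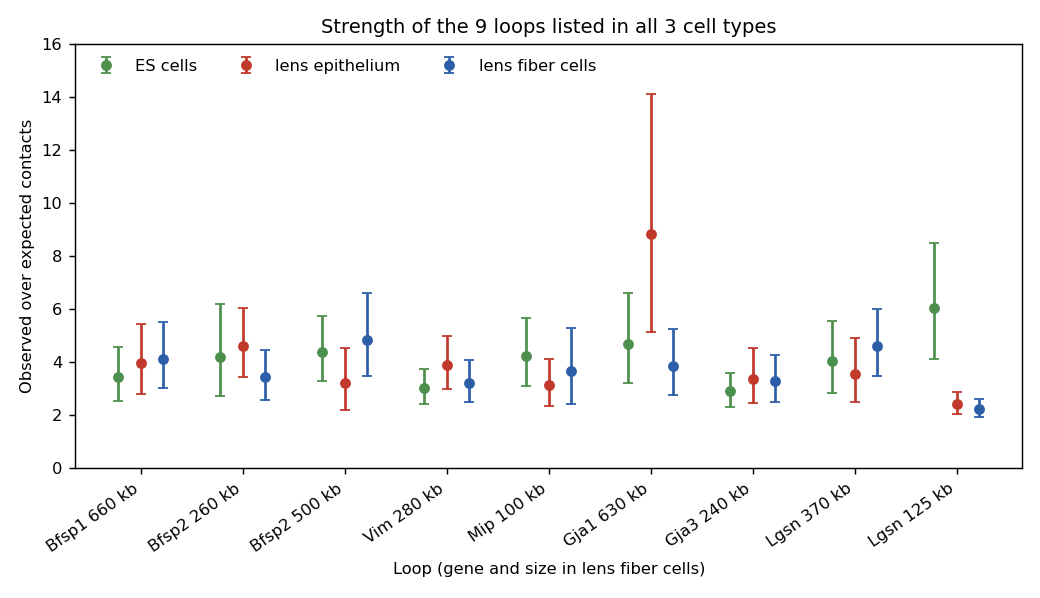
Observed over expected contacts of the 9 loops listed in all 3 cell types, with exact 95% Poisson intervals that cover counting error only, for ES cells (green), epithelium (red) and fibers (blue). The intervals overlap for 8 loops, while the 125 kb loop at Lgsn is at 6.03 in ES cells and at 2.44 and 2.25 in the lens lists.

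The same counts were taken for 24 other genes of the fiber membrane, cytoskeleton and RNA-binding proteins, and for 16 crystallin genes. An anchor within 50 kb was listed for 22 of the 24 genes in ES cells, 21 in epithelium and 20 in fibers. For crystallin genes, which encode the soluble lens proteins, the numbers were 11, 12 and 12 of 16. The median number of anchored loops was 2 in each list for the 9 genes. For the 24 other genes it was 3, 2 and 2, and for crystallin genes 2, 1 and 1. Over all genes the median was 1 in each list. More fiber than epithelium CTCF peaks were listed at 17 of the 24 genes and at 12 of 16 crystallin genes, against 56.1% of all genes. Several crystallin genes lie in clusters, so that the same loops, TADs and peaks can count for more than 1 of them. TADs touched 17, 14 and 15 of the 24 genes and 8, 2 and 5 of 16 crystallin genes in ES cells, epithelium and fibers. A longer gene body covers more sequence in all these counts. The median body was 23.6 kb for the 9 genes, 56.2 kb for the 24, 6.30 kb for crystallin genes and 19.5 kb for all genes. The part of gene length in the counts was not tested.

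Among the 24 genes, likeness to each of the 9 was measured by the distance between log2(1 + count) values over 5 counts, those of anchored loops in 3 lists and of CTCF peaks in 2. Tmem114, which encodes a lens membrane protein, was closest to Bfsp2 (distance 0.587) and Gja3 (0.669). Tmod1 was closest to Vim (0.827) and to Tdrd7 (1.00), whose loop has its near anchor on Tmod1 in both lens lists. Slc2a3, a glucose transporter gene, was closest to Mip (0.764). The poorest match was that of Lim2 with Ezr (1.24), which encodes a linker of membrane and actin and also had no anchored loop in any list.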

How the data were processed

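Loops, TADs and CTCF peaks were taken from the lists the authors deposited for mouse assembly mm10, and gene bodies, strands and start sites from RefSeq, assembly GRCm38.p6. The authors aligned reads with BWA, merged both Hi-C replicates with Juicer, and called loops and TADs with Juicer Tools 2.13.06. In the deposited loop lists, observed contacts are raw counts, expected contacts are a model score from the donut-shaped surroundings, and the FDR columns are q-values. In the deposited MACS2 peak lists, fold enrichment is a ratio over background and significance is a −log10 q-value. The deposited lists carry no read depth. The totals stated by the study, with the most contacts in the fiber map and the fewest in the epithelium map, were not used here, and no count was scaled by depth.

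Distances were measured from 1 start site per gene, the outermost of those listed for Gja3 and Tdrd7. All overlaps needed 1 bp. The gene table gives no exons, so that places within a gene are not divided further. Counts, shares with 95% Wilson intervals and exact 95% Poisson intervals came from scripts in Python 3.11.15 (scipy 1.17.1, pandas 2.3.3, numpy 2.4.6 and, for figures, matplotlib 3.10.9) that were tested on simulated data. The genes and lists were chosen with earlier results of these data known. All 9 genes, the genes at or nearest to their far anchors, and the most similar gene were named by rule, and some results that name withheld items are left out. Alternatives took other windows, anchor widths, FDR limits, tolerances, TAD rules and peak subsets.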

Additional observations from a re-analysis of the deposited data

How the results depend on the processing

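Of 83 values recomputed for 20 results under 21 alternatives, 61 were counts or coverages within 1.5 times the main value or shares within its 95% Wilson interval, and 22 moved beyond these limits. These intervals are wide: the epithelium share of loops with CTCF at both anchors stayed within its own at 5.26% with the stronger 50% of peaks and at 26.3% with anchors widened by 5 kb. The fiber share was 30.8% without loops with anchors of 25 kb, an alternative chosen after seeing the data. Counts of anchored loops fell most when the anchor had to overlap the gene body, to 3 in ES cells, 7 in epithelium and 9 in fibers. Without anchors of 25 kb, fibers kept 13 anchored loops, and spanning loops numbered 3 in ES cells and 1 in fibers. With every FDR below 0.01, 1 spanning fiber loop was left. Spanning loops of at most 500 kb numbered 4, 0 and 1 in ES cells, epithelium and fibers, and those of at most 2 Mb numbered 5 in each lens list. TADs of at least 200 kb numbered 3 in fibers, and TADs holding a whole gene numbered 1, 2 and 2. With the stronger 50% of peaks, epithelium had 9 peaks, 100% of them in the fiber list, and 0.0988% of the summed gene bodies covered, and 32.0% of fiber loops had CTCF at both anchors. Epithelium loops shared with fibers numbered 52.6% when both anchors had to overlap. These alternatives remove or add features by their construction. No paired analysis was possible because each cell type has 1 merged list and no result comes from a test, and leaving out a replicate was not possible for the same reason. Counts of a few loops per gene limit every comparison, and the 95% intervals leave out the spread between replicates.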

Other observations

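The features nearest to the limit of 50 kb were few. The farthest anchor counted was that of the 660 kb loop at Bfsp1, 46.5 kb from the gene in ES cells and lens fiber cells, and the farthest peak counted was at Lgsn, 46.3 kb away in both lens lists. Just outside lay an epithelium anchor 50.1 kb from Lim2, an epithelium anchor 54.9 kb from Bfsp2, and a CTCF peak 51.2 kb from Gja3 in both lens lists.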
